A study of Rattus norvegicus with 62 samples.

Results

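The comparison set cardiac muscle of rats dosed with 80 mg/kg rosiglitazone against cardiac muscle of rats dosed with vehicle, both sampled 6 h after the last dose. Arrays were chosen by their titles, and 9 of the 62 arrays of the series belonged to it. The 80 mg/kg group held 5 arrays (replicates 1, 2, 4, 5 and 6) and the vehicle group 4 (replicates 1, 3, 5 and 6). Vehicle stood for a dose of 0 mg/kg, and what it contained and the age of the rats were not given in the sources used here. All rats were male Wistar rats dosed by mouth once daily over 14 days, and the series also held a 10 mg/kg group and sampling at 24, 168 and 336 h. Each array was hybridised with total RNA of 1 sample of heart muscle kept in a stabilising solution. No source used here says that the samples of a group came from separate animals, so p-values reflect only how much samples varied. Unless another fit is named, that spread was pooled over the 12 groups of all 62 arrays. An SE, interval or p-value can thus be tighter or wider than the SDs of these 2 groups alone would give.

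Rosiglitazone is a thiazolidinedione, a drug class that binds and activates the nuclear receptor PPAR gamma. PPAR gamma pairs with a retinoid X receptor (RXR), and the pair binds DNA at repeats of a short hexamer near genes for fatty acid uptake, fatty acid transport in the cell and fat storage. In the heart PPAR gamma is scarce in muscle cells, where PPAR alpha governs fat burning, and it is also present in the endothelium of the capillaries, the cell layer that passes fatty acids from blood to muscle.

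Levels are log2 signals after quantile normalization, which gives all arrays the same distribution of values, so a difference of 1 is a doubling relative to the other transcripts. The muscle markers were at the top of the scale on all 9 arrays, for example Myh6, the main myosin heavy chain of the rat heart, at 13.94 ± 0.02 (SD, n = 4) in vehicle and 13.92 ± 0.05 (SD, n = 5) at 80 mg/kg. Of 12 markers of white fat cells with a probe set 7 were tested, among them Cfd, Lipe, Aqp7 and Lpl. Adipoq, Lep, Plin1, Cidec and Adrb3 lay below the level needed for testing. Of the 7 tested 2 were above 0 and 0 were called. Their summed signal ran from 11000 to 12300 in vehicle and from 11400 to 12700 at 80 mg/kg. Most of that sum was the signal of Lpl (log2 mean 13.28 in vehicle and 13.27 at 80 mg/kg). The sum thus says little about the other markers or about the amount of fat tissue. The arrays differed in how much atrial tissue they showed: Myl7, the myosin light chain of atrial muscle, was at 9 or above in vehicle replicate 6 (12.29) and in 80 mg/kg replicates 2 (12.09) and 4 (11.91), and at most at 7.29 on the other 6. The summed signal of the 9 atrial markers ran from 6660 to 26400 in vehicle and from 7780 to 23200 at 80 mg/kg, so the groups overlapped. Signs of RNA quality also differed between arrays. The 3' minus 5' difference of the actin control probes, which grows as RNA breaks down, ran from 0.76 to 1.68 in vehicle, where replicate 1 was highest, and from 0.83 to 1.45 at 80 mg/kg. The same difference of the hexokinase probes ran from 1.5 to 2.8 in vehicle and from 1.58 to 4.22 at 80 mg/kg, where replicates 1, 2 and 5 lay above every vehicle array. The part of these markers in the results was not tested. Values without the arrays with high Myl7 stand beside some of the results, and no fit left out the arrays with a high hexokinase difference. When arrays were clustered by their expression, vehicle replicate 3 and 80 mg/kg replicates 1, 2 and 5 fell in 1 cluster. The hexokinase difference was 2.8 to 4.22 on those arrays and 1.5 to 1.67 on the others. That cluster thus held 1 of 4 vehicle and 3 of 5 treated arrays.

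**Figure D1:**
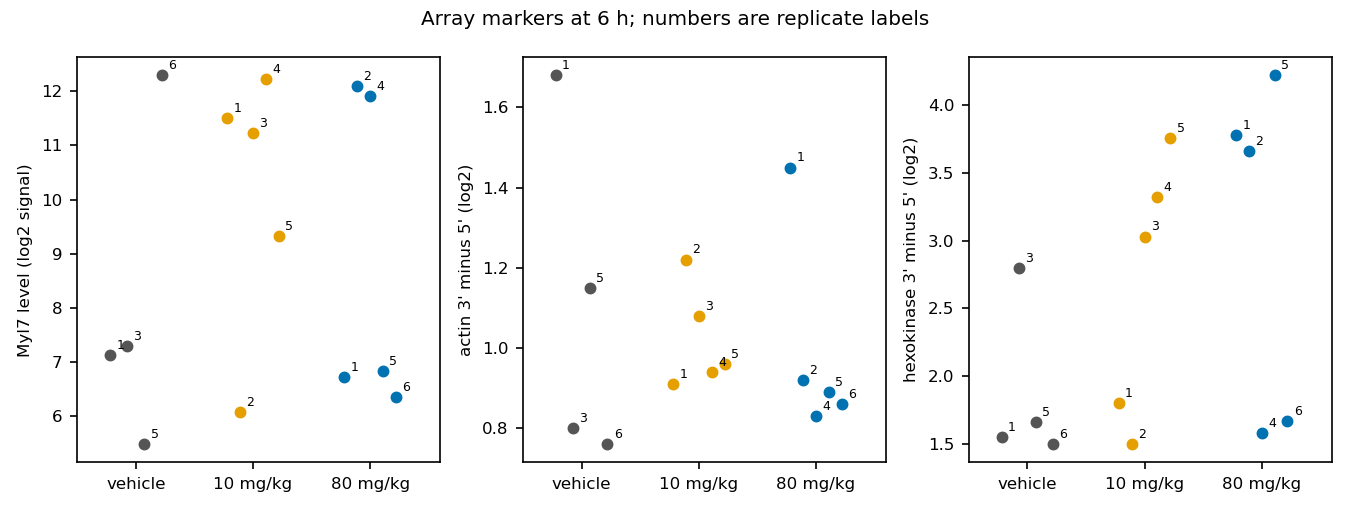
Level of Myl7 (left), actin 3' minus 5' difference (middle) and hexokinase 3' minus 5' difference (right), all on a log2 scale, for each array at 6 h by dose, where points are arrays and numbers are replicate labels. High Myl7 was found in 1 vehicle, 4 10 mg/kg and 2 80 mg/kg arrays, and the highest hexokinase difference was 4.22 in 80 mg/kg replicate 5.

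Few genes separated the groups after correction. Of 18625 probe sets tested with limma, 10 were called at a Benjamini-Hochberg adjusted p under 0.05 (0.0537%), 8 higher (0.043%) and 2 lower (0.0107%) at 80 mg/kg. At an unadjusted p under 0.05 there were 1239 (6.65%), 737 higher (3.96%) and 502 lower (2.7%). The ranges of the 2 groups did not overlap for 312 probe sets (1.68%), 171 higher (0.918%) and 141 lower (0.757%). The median difference over all tested probe sets was 0.01, and 181 differed by more than 1 in either direction. The called probe sets named 9 genes, 8 that rose (Rbp7, Fabp4, Gpihbp1, Slc2a3, Hrct1, Sox7, Adamts4 and Zfp131) and 1 that fell (Rubcn), and the remaining called probe set, which fell by 0.87 (SE 0.18, limma adjusted p = 0.04), is annotated to 2 genes and is not named. For each of the 9 genes the groups did not overlap. The number of calls depended on single arrays. Leaving out vehicle replicate 3 gave 29. Leaving out vehicle replicate 1 or 6 gave 5. Among the treated arrays, leaving out replicate 1 gave 3, and leaving out replicate 2, 4 or 6 gave 6. Without the arrays with high Myl7 there were 5 (Fabp4, Rbp7, Slc2a3, Gpihbp1 and Hrct1), and in a fit of these 9 arrays alone 2 (Rbp7 and Fabp4).

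**Figure D2:**
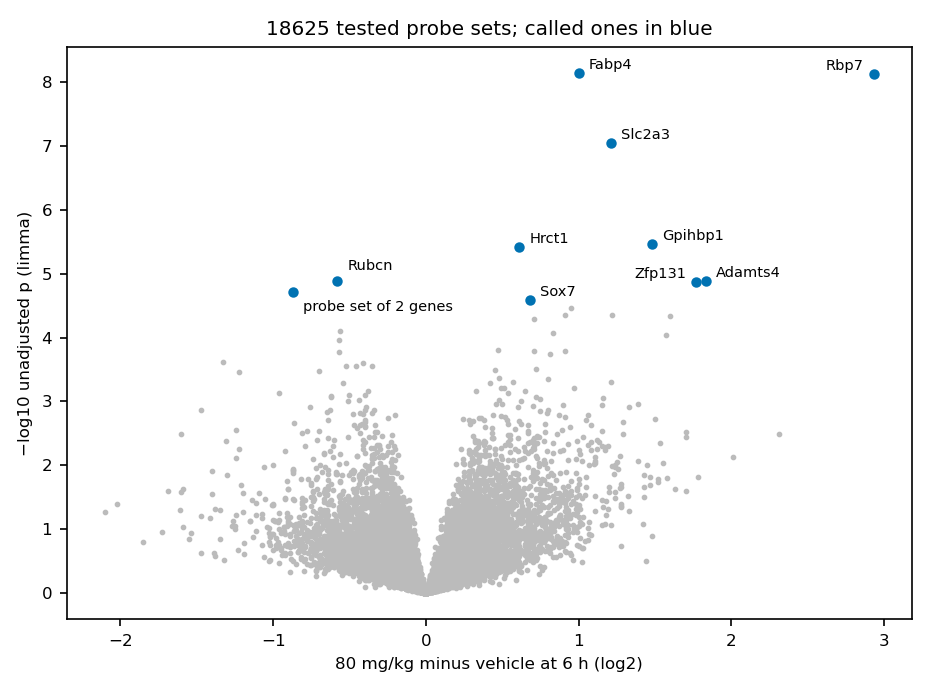
Difference between 80 mg/kg and vehicle at 6 h (x axis, log2) against the negative log10 of the unadjusted limma p (y axis) for 18625 tested probe sets, with the 10 called ones in blue. Rbp7 and Fabp4 reach the smallest p, and 8 of the 10 lie to the right of 0.

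Rbp7 showed the largest called difference. It encodes a small cytosolic protein that binds retinol (vitamin A) and is made in adipose tissue and capillary endothelium. Its log2 signal was 8.42, 7.44, 7.78 and 8.20 on the vehicle arrays and 10.76, 10.73, 11.21, 10.66 and 11.08 on the 80 mg/kg arrays. The lowest treated array thus lay more than 2 units above the highest vehicle array. Rbp7 rose from 7.96 ± 0.44 (SD, n = 4) to 10.89 ± 0.24 (SD, n = 5), a 7.62-fold difference with a 95% interval of 4.21 to 13.8 (limma adjusted p = 6.94e-05). The call held with each of the 9 arrays left out in turn, with the difference between 2.76 and 3.08. It was lost only when all 6 h arrays were fitted without the later times (adjusted p = 0.847), a fit that included the 10 mg/kg arrays. In bulk tissue a change in the number of cells of a type and a change in RNA per cell cannot be told apart.

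The retinoid list, genes that bind, transport, make or break down vitamin A and its acid, held 16 tested members. Of these 10 were above 0 and Rbp7 was the single call, against 0.0758% called among the 10557 genes represented by their brightest probe set. Over those genes 3.81% were higher and 3.07% lower at an unadjusted p under 0.05, and the groups lay apart upward for 0.9% and downward for 0.815%. The list median was 0.09 against 0.01 over all genes. Aldh1a3, an enzyme that makes retinoic acid, was at 0.67 (SE 0.25, limma adjusted p = 0.566), and Crabp1, which binds retinoic acid in the cell, at −0.78 (SE 0.51, adjusted p = 0.82). Rbp4, the retinol carrier of blood, lay below the level needed for testing.

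Promoter sequence was found in RefSeq (build GRCr8) for 4 of the 9 named genes, namely Rbp7, Rubcn, Adamts4 and Zfp131. Both sequences below are the 250 bases before the annotated transcription start, read 5′ to 3′ on the gene's strand. Rbp7 (chromosome 5, chr5:165177400-165177649, minus strand) is shown for its large difference, with its GC boxes in capitals. Zfp131 (chromosome 2, chr2:53485286-53485535, minus strand) is shown as the promoter with the PPAR hexamer, in capitals.
Rbp7: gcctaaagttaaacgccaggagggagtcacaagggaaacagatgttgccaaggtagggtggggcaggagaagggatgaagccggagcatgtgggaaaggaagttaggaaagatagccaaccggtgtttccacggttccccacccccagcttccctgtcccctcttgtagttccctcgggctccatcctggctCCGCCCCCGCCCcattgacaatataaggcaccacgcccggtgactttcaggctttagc
Zfp131: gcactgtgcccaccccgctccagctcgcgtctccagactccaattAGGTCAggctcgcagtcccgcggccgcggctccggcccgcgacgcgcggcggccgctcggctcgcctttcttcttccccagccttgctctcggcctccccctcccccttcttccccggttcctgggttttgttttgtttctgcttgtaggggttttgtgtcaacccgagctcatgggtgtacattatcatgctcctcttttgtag

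The motifs searched, on both strands, were the PPAR hexamer AGGTCA, its direct repeat AGGTCANAGGTCA with up to 2 mismatches, the GC box GGGCGG, the TATA box TATAAA and the SOX core AACAAT. In Rbp7 the GC box was found on the minus strand of this reading at 58 to 53 and at 52 to 47 bases before the start, 2 adjoining copies. In Zfp131 the hexamer was found at 205 to 200 bases before the start. Of 33360 promoters of the same length 30.5% hold the GC box and 14.1% the hexamer, and 3.15% hold the direct repeat, which none of the 4 promoters did. The TATA box (12.9% of promoters) and the SOX core (10.3%) were also found in 0 of the 4. These are descriptions of letters in a window and say nothing about where the receptor binds.

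Genes that carry fatty acids from blood lipoproteins into the cell held 2 of the called genes. Fabp4, a carrier of fatty acids in fat cells and capillaries, was already bright in vehicle, at 12.09, 11.84, 11.91 and 12.12. On the 80 mg/kg arrays it was at 12.98, 12.89, 13.03, 12.91 and 13.15. Each group was tight and the groups lay well apart. Fabp4 rose from 11.99 ± 0.13 (SD, n = 4) to 12.99 ± 0.10 (SD, n = 5), 2.01-fold with a 95% interval of 1.64 to 2.46 (limma adjusted p = 6.94e-05). The call held without any single array of the 9 (difference 0.96 to 1.05) and was lost only in the fit of all 6 h arrays alone.

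Gpihbp1 encodes the protein that holds lipoprotein lipase on the inner face of capillaries, where circulating triglyceride is cleaved. Its log2 signal was 7.54, 7.73, 7.84 and 8.29 in vehicle and 9.39, 8.92, 9.80, 9.27 and 9.26 at 80 mg/kg. All treated arrays lay above all vehicle arrays, with vehicle replicate 6 the nearest. Gpihbp1 rose 2.78-fold (95% interval 1.87 to 4.13, limma adjusted p = 0.0143). Leaving out vehicle replicate 1 ended the call (adjusted p = 0.127), as did leaving out treated replicate 1 (adjusted p = 0.0529) or 4 (adjusted p = 0.0723). With single arrays left out the difference ran from 1.36 to 1.62. Array weights also ended the call (adjusted p = 0.0553), as did leaving out the arrays with an actin difference over 1.5 (adjusted p = 0.0811).

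The partners of these genes did not pass. Lpl, the lipase that Gpihbp1 holds, was at 13.28 ± 0.04 (SD, n = 4) in vehicle and 13.27 ± 0.06 (SD, n = 5) at 80 mg/kg, with a 95% fold interval of 0.901 to 1.09. Fabp3, the fatty acid binding protein of heart muscle, was at −0.01 (SE 0.04). Lpl and Fabp3 lay near the top of the scale, and medians of other bright genes depended on the scaling, as given below. Cd36, a fatty acid transporter of endothelium and muscle, was at 11.20, 12.14, 12.19 and 12.65 in vehicle and between 12.41 and 12.88 at 80 mg/kg. Its difference of 0.55 (SE 0.19, limma adjusted p = 0.489) was 0.27 without vehicle replicate 1, and the groups overlapped. Fabp5, which binds fatty acids in endothelium and skin, was at 0.60 (SE 0.18, adjusted p = 0.337). Of the 20 tested members of the list for fatty acid uptake and capillary lipolysis, 15 were above 0, 2 were called higher and 0 lower, and the median was 0.13. At an unadjusted limma p under 0.05, 6 were higher and 1 lower, against 3.81% and 3.07% over all genes. The groups lay apart upward for 3 and downward for 0, against 0.9% and 0.815%. These counts include the 2 called genes, and the list was chosen with earlier results of these data known.

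Angptl4, a secreted inhibitor of lipoprotein lipase and a textbook PPAR target, was below the signal level required for testing. Its log2 signal was 2.99, 3.61, 4.10 and 3.26 in vehicle and 6.84, 6.58, 6.30, 5.54 and 6.65 at 80 mg/kg. The groups did not overlap, and before log transformation and normalization the signals ran from 6.99 to 16.4 in vehicle and from 57.2 to 152 at 80 mg/kg. In a fit with no filter on dim probe sets the difference was 2.89 (SE 0.72), and its limma adjusted p of 0.23 did not pass.

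Slc2a3 was the called gene of the list for glucose uptake and glycolysis. It encodes GLUT3, a glucose transporter of high affinity best known from neurons. Its log2 signal was 5.88, 4.68, 5.21 and 5.29 in vehicle and 6.67, 6.39, 6.36, 6.44 and 6.49 at 80 mg/kg. The treated arrays were close together and above all vehicle arrays. Slc2a3 rose 2.31-fold (95% interval 1.76 to 3.02, limma adjusted p = 0.000555), and the call held without any single array of the 9, but not in the fit of these 9 arrays alone. Slc2a1, the basal glucose transporter, was at 0.06 (SE 0.17), Slc2a4, the insulin-responsive transporter of muscle, at 0.24 (SE 0.14, adjusted p = 0.8), and Hk2, which phosphorylates glucose on entry, at −0.21 (SE 0.26). Of 27 tested members 19 were above 0, 1 was called higher and 0 lower, with a median of 0.05.

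**Figure D3:**
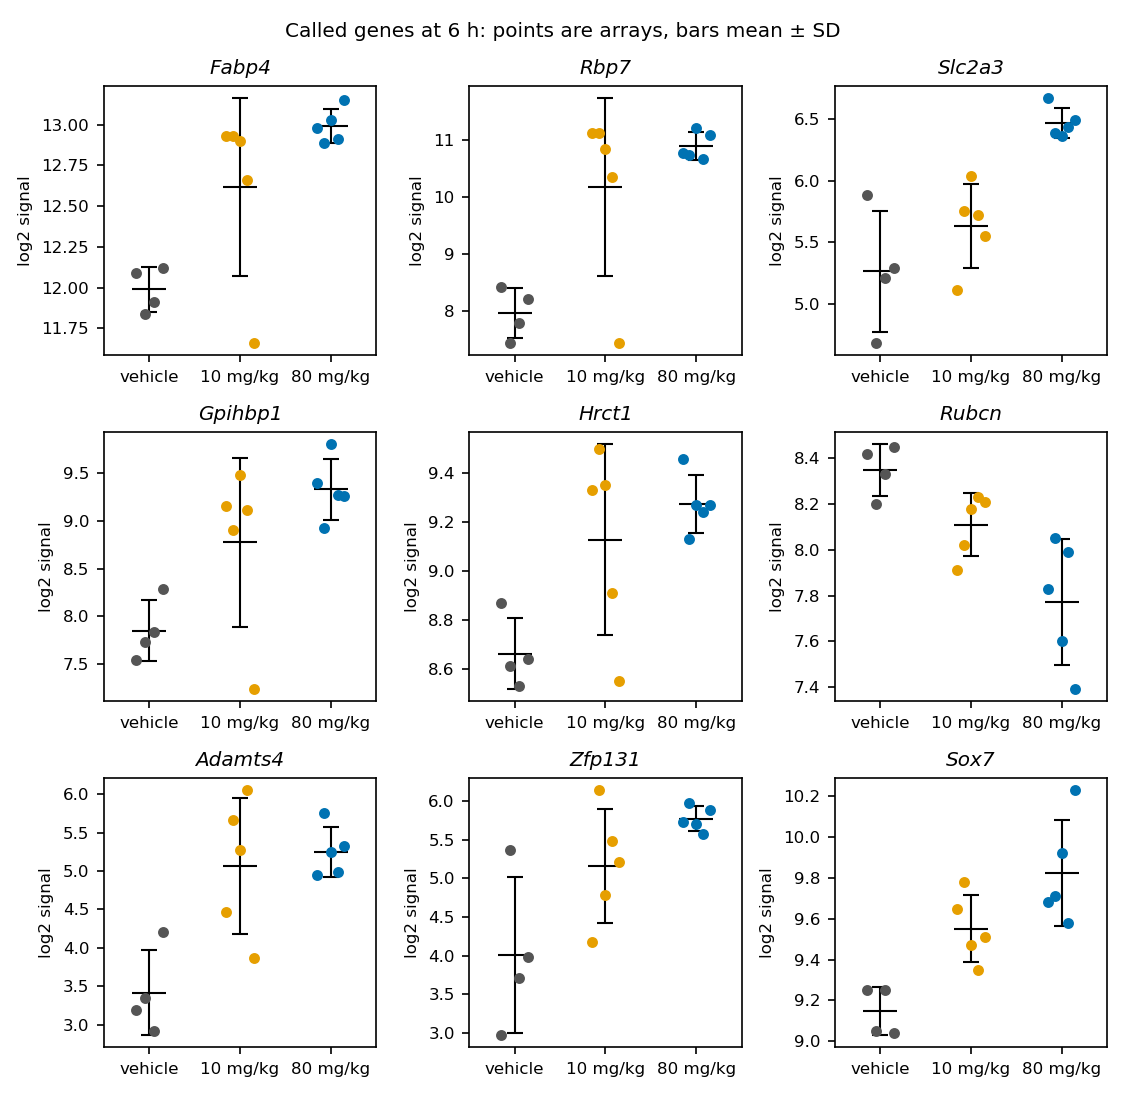
Log2 signal of the 9 called genes at 6 h for vehicle, 10 mg/kg and 80 mg/kg, with each array as a point and the mean with SD as bars; axes do not start at 0. For each gene the 80 mg/kg points lie apart from the vehicle points, and 1 array of 10 mg/kg lies low for Rbp7 (7.43), Fabp4 (11.66) and Gpihbp1 (7.24).

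Sox7, a transcription factor of developing and adult vessels, was called at the edge of the threshold. Its log2 signal was 9.25, 9.05, 9.25 and 9.04 in vehicle and 9.68, 9.71, 9.92, 9.58 and 10.23 at 80 mg/kg. The groups did not overlap, and 80 mg/kg replicate 6 was the highest. Sox7 rose by 0.68 (SE 0.15, limma adjusted p = 0.0486), and of the 9 fits that left out an array 1, that without treated replicate 5, kept the call (adjusted p at most 0.229, difference 0.57 to 0.74). The call was also lost without the arrays with high Myl7 (0.65, adjusted p = 0.665), with array weights (0.59, adjusted p = 0.24) and with no filter (adjusted p = 0.0989). On the deposited signals without normalization the difference of Sox7 was 1.06 (adjusted p = 0.189). Its relatives Sox18 (0.72, SE 0.19, adjusted p = 0.191) and Sox17 (0.30, SE 0.11, adjusted p = 0.532), the latter chosen after its values were seen, did not pass.

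Other endothelial genes did not pass. Cldn5, a tight junction protein of vessels, was at 8.13, 7.94, 7.77 and 7.69 in vehicle and 8.68, 8.24, 8.90, 8.14 and 8.72 at 80 mg/kg. Those groups lay just apart, and the difference of 0.65 (SE 0.18) had a limma adjusted p of 0.286. Ccm2l, an endothelial gene of vessel growth, was at 0.91 (SE 0.20, adjusted p = 0.0617), and Esm1, a proteoglycan of sprouting endothelium, at −1.22 (SE 0.32, adjusted p = 0.194). Pecam1 (−0.20, SE 0.12) and Emcn (−0.15, SE 0.08), general endothelial markers, had differences below 0. Of 16 tested endothelial markers 13 were above 0, 0 were called and 3 had an unadjusted p under 0.05, with a median of 0.14 and a summed signal of 5950 to 7710 in vehicle and 6620 to 8210 at 80 mg/kg. The median was 0.13 above that of all genes, and between −0.02 and 0.22 over 24 alternatives.

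The other called genes belong to no shared pathway list. Hrct1, a gene of poorly known function, was at 8.87, 8.61, 8.53 and 8.64 in vehicle and 9.46, 9.13, 9.27, 9.24 and 9.27 at 80 mg/kg. Every treated array lay above every vehicle array. Hrct1 rose 1.53-fold (95% interval 1.30 to 1.80, limma adjusted p = 0.0143), and leaving out vehicle replicate 5, vehicle replicate 6 or treated replicate 1 ended the call (adjusted p at most 0.0749). On the deposited signals without normalization the difference of Hrct1 was 1.01 and did not pass (adjusted p = 0.22).

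Adamts4, a protease that cleaves the matrix proteoglycans aggrecan and versican, was dim. It was at 3.19, 3.35, 2.92 and 4.20 in vehicle and 4.95, 5.75, 5.24, 4.98 and 5.32 at 80 mg/kg. The groups were apart, but the vehicle mean lay below the filter level of 5.03, where signals are imprecise. Adamts4 rose by 1.83 (SE 0.38, limma adjusted p = 0.0314), and 3 of the 9 fits that left out an array kept the call. It was lost without vehicle replicate 1 or 5 and without treated replicate 1, 2, 4 or 6, with an adjusted p of at most 0.151, and also without the arrays with high Myl7. With a pseudocount of 16 the difference of Adamts4 was 0.96 (adjusted p = 0.197), and with no filter its adjusted p was 0.0663.

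In the extracellular matrix list 30 of 37 tested members were above 0, 1 was called higher and 0 lower, with a median of 0.15. Thbs4, a matricellular protein, was at 4.81, 3.08, 2.84 and 3.19 in vehicle and 5.71, 6.50, 5.24, 5.41 and 6.07 at 80 mg/kg. The groups did not overlap, and the difference of 2.31 (SE 0.75) had a limma adjusted p of 0.444. Ccn2, a growth factor bound to the matrix, was at −0.64 (SE 0.20, adjusted p = 0.372). The collagen gene Col1a2 was at 0.39 (SE 0.22) and Postn, periostin, at 0.52 (SE 0.29). The fibroblast markers had 9 of 10 members above 0 with 0 called and 0 at an unadjusted p under 0.05, and their summed signal was 18700 to 23400 in vehicle and 20700 to 24200 at 80 mg/kg.

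Rubcn, whose product Rubicon restrains autophagy, was the single named gene that fell. It was at 8.42, 8.20, 8.33 and 8.45 in vehicle and 7.83, 8.05, 7.60, 7.99 and 7.39 at 80 mg/kg. All treated arrays lay below all vehicle arrays, with 80 mg/kg replicate 6 the lowest. Rubcn fell by 0.58 on the log2 scale (SE 0.12, limma adjusted p = 0.0314), but the call ended when vehicle replicate 1, 5 or 6, or treated replicate 1, 4 or 6, was left out (adjusted p at most 0.198). Without the arrays with high Myl7 its difference stayed at −0.58 and the adjusted p was 0.347. On the deposited signals without normalization the difference of Rubcn was −0.18 (adjusted p = 0.642), and with median scaling −0.51 (adjusted p = 0.543). The call was also lost with a pseudocount of 16, with no filter and with array weights (adjusted p = 0.0539, 0.0663 and 0.193). Of 26 autophagy and lysosome genes 10 were above 0, 1 was called lower and 0 higher, and the median was −0.06. Uvrag, a partner of the same membrane complex, was at −0.25 (SE 0.12, adjusted p = 0.722).

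Zfp131, a zinc finger protein, was called by a dim probe set that read 2.97, 5.37, 3.71 and 3.98 in vehicle and 5.73, 5.97, 5.70, 5.58 and 5.89 at 80 mg/kg. The vehicle arrays were widely spread and replicate 3 nearly reached the treated arrays. That probe set rose by 1.77 (SE 0.37, limma adjusted p = 0.0314). The brighter probe set of Zfp131 was at 6.66 ± 0.26 (SD, n = 4) in vehicle and 6.59 ± 0.25 (SD, n = 5) at 80 mg/kg, a difference of −0.07, so the 2 probe sets disagree. The call held only when the array left out was vehicle replicate 3 or treated replicate 5, with an adjusted p of at most 0.289 for the others, and it was also lost without the arrays with high Myl7. With a pseudocount of 16 the difference of Zfp131 was 1.05 (adjusted p = 0.0666), with no filter the adjusted p was 0.0663, and with array weights 0.0618.

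The receptors themselves and their coactivators were not called. Pparg was at 5.66, 6.47, 6.14 and 7.06 in vehicle and between 6.46 and 7.02 at 80 mg/kg, overlapping, with a difference of 0.41 (SE 0.23, limma adjusted p = 0.791). Ppara was at −0.45 (SE 0.47), Ppard at 0.09 (SE 0.17), and Ppargc1a, a coactivator of mitochondrial genes, at 0.08 (SE 0.20) with its other 2 probe sets of opposite sign. Of 17 tested receptors and coregulators 10 were above 0, 0 were called and 1 had an unadjusted p under 0.05.

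Genes that heart muscle switches on through PPAR alpha in fasting were not called. All 11 tested members of that list were above 0, 0 were called by limma, 1 had an unadjusted p under 0.05, and the median was 0.14. Cyp4b1, a fatty acid hydroxylase, had the smallest p, at 0.35 (SE 0.12, adjusted p = 0.458). Pdk4, which blocks glucose oxidation, was at 10.39 ± 0.47 (SD, n = 4) and 10.41 ± 0.48 (SD, n = 5), and its interval in fold, 0.701 to 1.47, spans changes in both directions. Ucp3, a mitochondrial carrier, was at 0.70 (SE 0.48). Among fatty acid oxidation enzymes 13 of 23 were above 0, with 0 called, 0 at an unadjusted p under 0.05 and a median of 0.01. Of these Cpt1b, the muscle gate for fatty acid entry into mitochondria, was at −0.01 (SE 0.08) and Acadm at −0.09 (SE 0.08).

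Genes of lipid droplets were mostly above 0, in 19 of 21 tested members, with 0 called, 4 at an unadjusted p under 0.05 and a median of 0.14. Mgll, which splits monoglycerides in the last step of lipolysis, was at 8.38, 7.99, 8.25 and 7.67 in vehicle and 9.32, 8.96, 8.81, 8.93 and 8.39 at 80 mg/kg. The groups touched without overlapping, and the difference of 0.81 (SE 0.20) had a limma adjusted p of 0.14. Of its other probe sets 1 was at 1.06 and 1 at −0.12. Hilpda, a lipid droplet protein, was at 0.52 (SE 0.22), while the coat proteins Plin2 (0.09, SE 0.10) and Plin5 (0.14, SE 0.22) did not pass. In lipogenesis 14 of 18 were above 0, 0 were called and 1 had an unadjusted p under 0.05, with Scd2, a fatty acid desaturase, at 0.57 (SE 0.15, adjusted p = 0.244).

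Oxidative phosphorylation and the contractile apparatus stayed close to 0. Of 30 respiratory chain genes 12 were above 0, 0 were called and 1 had an unadjusted p under 0.05 (median −0.02). Of 21 sarcomere genes 6 were above 0, 0 were called and 0 had an unadjusted p under 0.05 (median −0.02). The medians of these bright genes depended on the scaling. With the arrays scaled to a common median, or not at all, the sarcomere median minus that of all genes was −0.28, and for the respiratory chain it was −0.23.

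**Figure D4:**
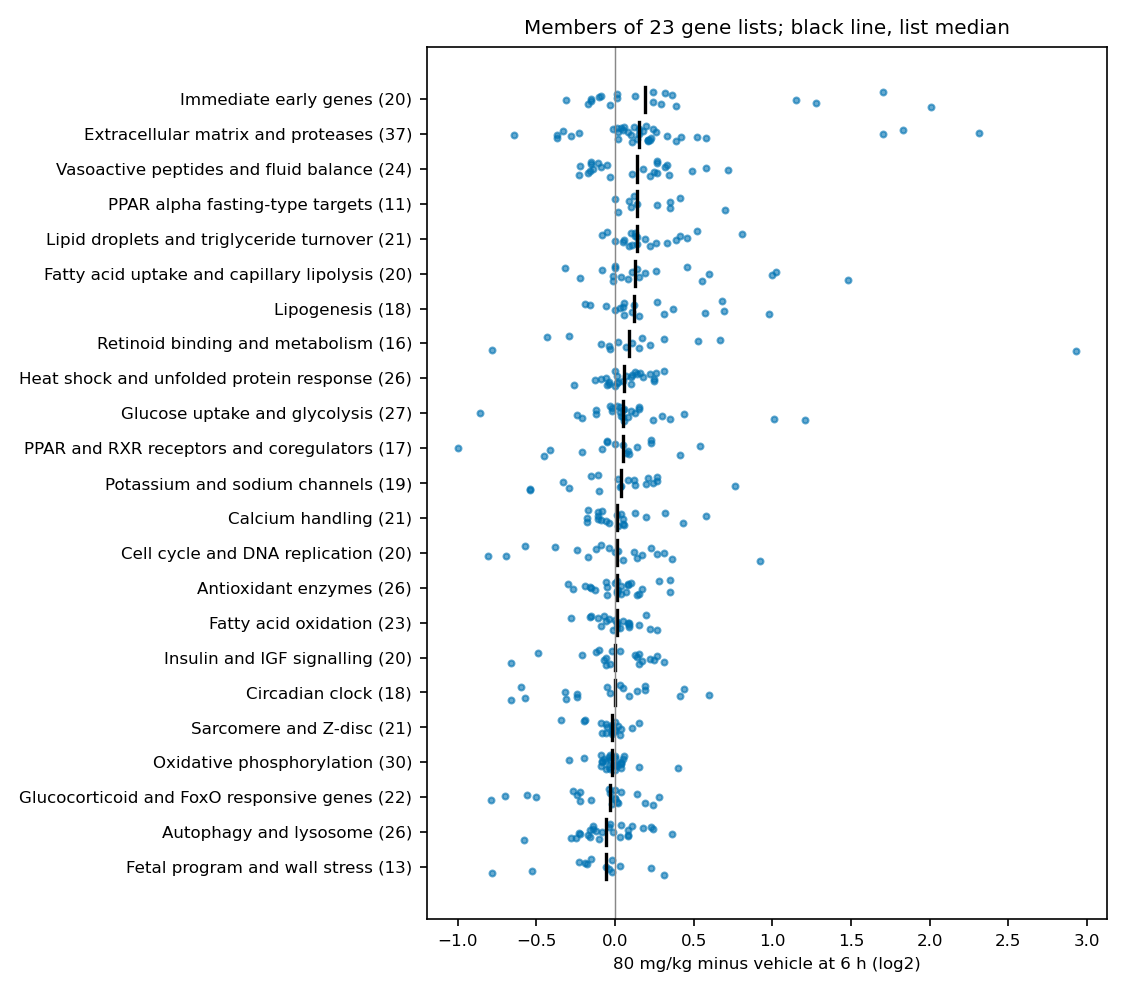
Difference between 80 mg/kg and vehicle at 6 h (log2) for the tested members of 23 gene lists, by their brightest probe set, with the number of members in brackets. Points are genes and the black line is the list median, which runs from −0.06 to 0.19, and single genes such as Rbp7 at 2.93 stand far from their list.

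Nppb, which encodes the natriuretic peptide BNP, a marker of wall stress, did not pass. It was at 12.12, 11.99, 11.32 and 11.48 in vehicle and 10.98, 10.96, 10.32, 11.40 and 11.09 at 80 mg/kg. The groups overlapped because treated replicate 5 lay above vehicle replicate 5, and the difference of −0.78 (SE 0.25) had a limma adjusted p of 0.435. Nppa, the atrial peptide gene, was at 0.31 (SE 0.67) with a spread of 1.70 (SD, n = 4) in vehicle, where replicate 6 showed high atrial markers. Of 13 genes of the fetal program and wall stress 3 were above 0, 0 were called and 1 had an unadjusted p under 0.05.

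Immediate early genes are switched on quickly when cells are stimulated. Their list median, 0.19, was the highest of the 23 pathway lists, with 13 of 20 above 0, 0 called and 4 at an unadjusted p under 0.05. Fos was at 5.29, 6.06, 5.86 and 6.75 in vehicle and 7.01, 6.80, 8.0, 8.93 and 9.26 at 80 mg/kg. The groups did not overlap, but 80 mg/kg replicates 4, 5 and 6 were far above replicates 1 and 2, and the difference of 2.01 (SE 0.72) had a limma adjusted p of 0.507. The same 3 arrays were high for Egr1 (9.26, 10.30 and 10.66, against 7.96 and 7.88 on the other treated arrays and 7.62 to 8.24 in vehicle) and for Nr4a1 (8.26, 9.26 and 9.05, against 7.08 and 6.90, and 6.30 to 7.20 in vehicle). Neither was called (1.28, SE 0.53, and 1.15, SE 0.39).

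Among genes that respond to glucocorticoids and FoxO factors 7 of 22 were above 0, 0 were called and 2 had an unadjusted p under 0.05. Ddit4, an inhibitor of mTOR, was at −0.79 (SE 0.27, limma adjusted p = 0.467) and Nfkbia, the inhibitor of NF-kappa B, at −0.70 (SE 0.22, adjusted p = 0.435). In the circadian clock list 9 of 18 were above 0, 0 were called and 4 had an unadjusted p under 0.05, with Bmal1 at −0.66 (SE 0.29, adjusted p = 0.708) and Cry2 at 0.60 (SE 0.27, adjusted p = 0.722). Of the remaining lists, heat shock (18 of 26 above 0), antioxidant enzymes (17 of 26), vasoactive peptides (13 of 24), insulin signalling (10 of 20), calcium handling (11 of 21), channels (12 of 19) and cell cycle (11 of 20) also had 0 calls, with 1 to 4 members each at an unadjusted p under 0.05. Over all 10557 genes 51.5% were above 0.

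Beyond the called genes, the 12 positive and the 12 negative differences with the smallest p among probe sets of 1 gene are described here. None passed, and their adjusted p ran from 0.059 for Dhx32 to 0.306 for Mmgt1. Dhx32, an RNA helicase, was at 0.95 (SE 0.21, limma adjusted p = 0.059), and vehicle replicate 3 (6.97) lay among the treated arrays (6.68 to 7.19). Mylip, the ubiquitin ligase that degrades the LDL receptor, was at 7.01, 7.13, 7.26 and 6.72 in vehicle and 7.43, 8.06, 7.78, 7.81 and 7.60 at 80 mg/kg, with no overlap (0.71, SE 0.16, adjusted p = 0.0645). Hic1, a transcriptional repressor, was at 1.57 (SE 0.37, adjusted p = 0.0957), with vehicle replicate 6 low. The other positive differences were Ggta1, Tk1, Pcbp3, Vwa5b2, Baz1b and Paox (0.45 to 0.91) besides Ccm2l, Mgll and Sox18 above. Tk1, thymidine kinase, had 2 other probe sets of opposite sign. Pcbp3 (0.91) had 2 brighter probe sets at −0.02 and 0.05. Baz1b (0.48) had a brighter probe set at 0.14 (adjusted p = 0.855) and a dimmer one at 1.21 (adjusted p = 0.244). Of the negative differences Gstcd was nearest (−0.56, SE 0.13, adjusted p = 0.0931), followed by Slc41a3, a magnesium transporter (−0.57, SE 0.14, adjusted p = 0.106). The mitochondrial monoamine oxidase Maob was at −0.46 (SE 0.12, adjusted p = 0.18), and its groups did not overlap. The other negative differences were Abo, Spcs3, Rimbp2, Midn, Polr2h, Daam1, Ccdc6 and Mmgt1 (−1.33 to −0.35) besides Esm1.

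Set beside the later times, the effect at 6 h differed for 1 gene. The effect of 80 mg/kg at 6 h was compared with the mean effect at 24, 168 and 336 h, and Aqp1 was the single called probe set (0.00537% of 18625), with 1181 at an unadjusted p under 0.05 (6.34%). Aqp1 encodes the water channel of capillary endothelium. At 6 h it was at 10.63, 10.99, 10.98 and 11.19 in vehicle and 10.74, 11.01, 10.99, 10.64 and 10.59 at 80 mg/kg, so the groups overlapped (−0.15, SE 0.13, limma adjusted p = 0.882). The difference from vehicle was −0.81 at 24 h, −1.25 at 168 h and −1.70 at 336 h. The effect at 6 h lay 1.10 above the mean of these (SE 0.15, adjusted p = 3.86e-05). Over 54 alternatives that difference ran from 0.83 to 1.64 with an adjusted p of at most 0.151, reached when the arrays with high Myl7 and those with an actin difference over 1.5 were both left out. Another probe set of Aqp1 was at −0.02 at 6 h and at −0.11, −1.14 and −1.80 at the later times, and its test gave 1.0 (SE 0.37, adjusted p = 0.632). Among the named genes Car4 (1.48), Dhx32 (1.09), Sox7 (0.79) and Ccn2 (−1.04) had an adjusted p of 0.06, as had Ankh (0.67), Afdn (0.45) and Ptprr (−0.57), which were chosen after their values were seen. Nppb was at −1.23 (adjusted p = 0.122). Car4, a carbonic anhydrase of capillaries chosen after its values were seen, differed from vehicle by 0.74 at 6 h and by −0.37, −0.97 and −0.91 at the later times. Against 24 h alone 0 probe sets were called by limma and 1834 had an unadjusted p under 0.05 (9.85%).

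For the called genes the difference from the later times was not established. Rbp7 differed from vehicle by 2.93 at 6 h and by 2.95, 3.76 and 4.10 at 24, 168 and 336 h, and the test of the 6 h effect against the later mean gave −0.67 (limma adjusted p = 0.856). Gpihbp1 had 1.48, then 1.70, 2.42 and 2.62 (adjusted p = 0.718), and Fabp4 1.0, then 0.73, 0.94 and 1.04 (adjusted p = 0.937). Slc2a3 had 1.21, then 0.15, 0.55 and 0.88 (adjusted p = 0.613). Adamts4 had 1.83, then −0.67, 0.73 and 0.67 (adjusted p = 0.341), and Rubcn −0.58, then −0.03, 0.05 and −0.12 (adjusted p = 0.202). Hrct1 had 0.61, then 0.12, 0.51 and 0.56 (adjusted p = 0.839), and Sox7 0.68, then 0.13, −0.10 and −0.38 (adjusted p = 0.06). The called probe set of Zfp131 had 1.77, then 0.41, −0.49 and 0.20 (difference 1.73, adjusted p = 0.189). These tests missed the threshold, which does not show that the effects were alike.

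**Figure D5:**
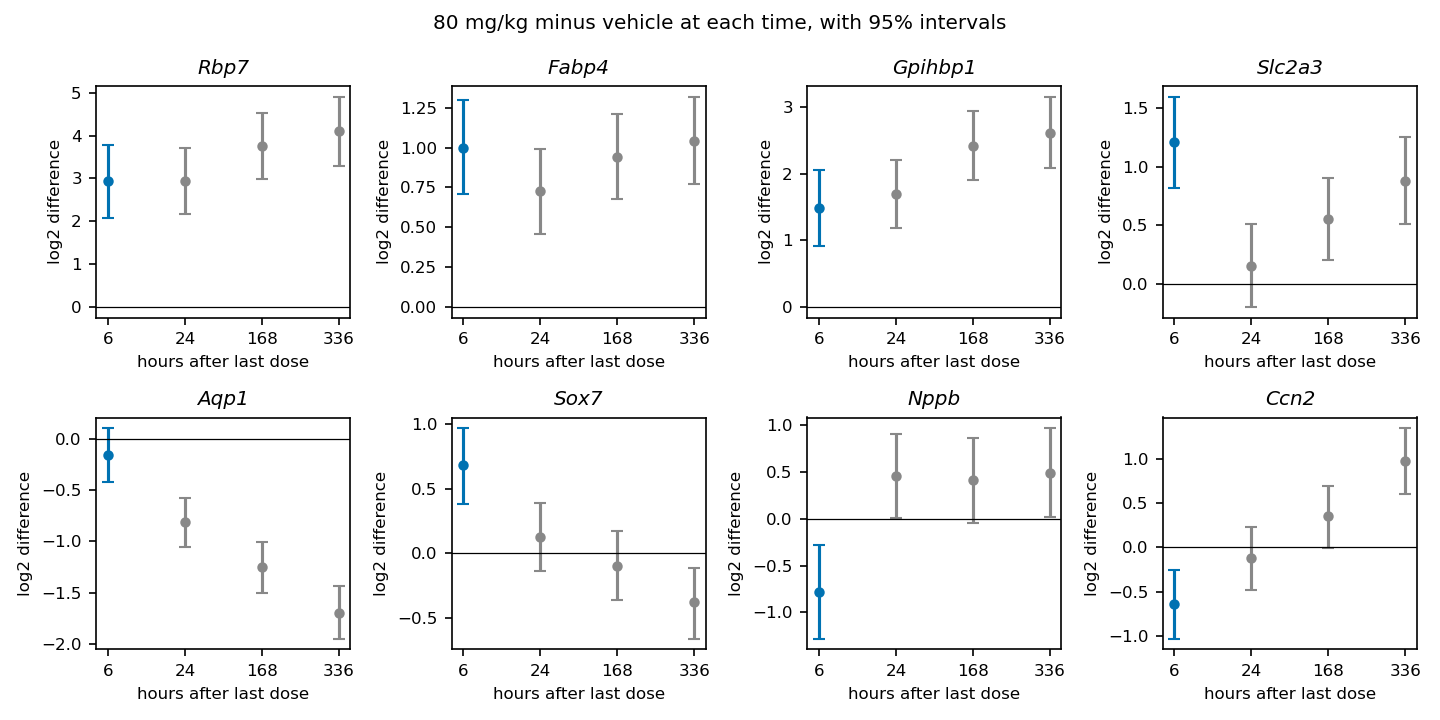
Difference between 80 mg/kg and vehicle (y axis, log2) with its 95% interval at each time after the last dose (x axis, hours, evenly spaced and not to scale) for 8 genes, with 6 h in blue and later times in grey. Aqp1 is at −0.15 at 6 h and at −1.70 at 336 h, while Rbp7 is well above 0 at all 4 times.

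At 10 mg/kg 1 array stood apart from its label. Replicate 5 was at 7.43 for Rbp7, 11.66 for Fabp4 and 7.24 for Gpihbp1, below every vehicle array, while the other 4 arrays were at 10.34 to 11.12, 12.66 to 12.93 and 8.90 to 9.48. The 80 and 10 mg/kg groups were each set against the same vehicle arrays, so their effects are given side by side. The 10 mg/kg difference was 2.21 for Rbp7, 0.63 for Fabp4 and 0.92 for Gpihbp1 with replicate 5, and 2.89, 0.87 and 1.31 without it. For Slc2a3 it was 0.37, and 0.39 without that array, and for Adamts4 1.65 and 1.95. Without replicate 5 limma called Fabp4, Gpihbp1, Hrct1, Rbp7 and Adamts4 at 10 mg/kg, and 0 probe sets with it (1196 at an unadjusted p under 0.05, 6.42%). That array was left out for its low Rbp7, Fabp4 and Gpihbp1. Their differences were bound to rise without it, so these calls lend no support to an effect at 10 mg/kg.

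Tested directly, 80 against 10 mg/kg gave 0 called probe sets by limma, with 686 at an unadjusted p under 0.05 (3.68%), and 1, Mylip, without 10 mg/kg replicate 5. Of the called genes Slc2a3 showed the clearest gap, with 10 mg/kg arrays at 5.11, 5.75, 6.04, 5.72 and 5.55, all below the 80 mg/kg arrays (0.83, limma adjusted p = 0.292). For Rbp7 the doses differed by 0.72 with replicate 5 and by 0.04 without it (95% interval −0.61 to 0.68). For Fabp4 the gap without it was 0.14 (−0.08 to 0.35) and for Gpihbp1 0.17 (−0.31 to 0.65). Leaving out an array chosen for its low values of these genes narrows the gap by itself. These intervals therefore do not show that the doses were alike. Of the 10 mg/kg arrays 4 of 5 had high Myl7, against 2 of 5 at 80 mg/kg. With those arrays left out 18 probe sets were called between the doses, a fit with 1 array left at 10 mg/kg that was assumed to vary like the other groups.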

How the data were processed

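Heart RNA was measured on an Affymetrix rat array in 62 samples. The authors deposited 1 linear intensity for each probe set of an array, made with GCOS and MAS5 per the submitters' processing notes, whose versions the sources used here do not state. After 57 control probe sets were left out, the log2 of 31042 was quantile normalized over all arrays, since the 2% trimmed means ran from 112 to 232 on the 9 arrays. Probe sets with a mean at or above the 40th percentile (5.03) were kept (18625). limma 3.58.1 in R 4.3.3 fitted 12 group means, with two-sided p-values adjusted by Benjamini-Hochberg over all kept probe sets and calls under 0.05. The arrays' number limits the precision.

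Names came from the platform annotation (14260 kept probe sets with 1 gene, 338 with several, 4027 with none listed). A gene is given by its brightest probe set, except that called genes, those with the smallest p and those called in a test of a difference are given by the probe set that met that rule. Named were called genes, the 12 rises and falls with the smallest p, a set of metabolic and cardiac genes, and the 2 members with the smallest p in each direction of each list. The members and lists were chosen with earlier results of these data known. Lists are described by counts and medians without a set test. Expression clusters were 3 groups of arrays on 2 principal components (14.4% and 8.94% of the variance). Alternatives covered scaling, a pseudocount, filters, weights, blocks and arrays left out. Leaving out arrays by an actin difference over 1.5, fitting the 9 arrays alone, and leaving out 10 mg/kg replicate 5 were chosen after seeing the data.

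On simulated data for the comparison of 80 mg/kg with vehicle at 6 h (18625 probe sets), 14, 41, 39 and 49 of 50 changed probe sets were called at log2 changes of 0.5, 1, 1.5 and 2, with 7 false calls. The simulated noise was normal and independent between probe sets and arrays, without shared differences in atrial tissue or RNA quality. All changes were planted at once, which eases the adjusted threshold. Recovery in the real comparison, with 10 calls, may therefore be lower.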

Additional observations from a re-analysis of the deposited data

Results flagged for a closer look

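The effect of 80 mg/kg on Aqp1 at 6 h lay 1.10 (log2) above its mean effect at 24, 168 and 336 h by a test of that difference (limma).

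Single arrays lay far from the rest of their group in 20 of 374 cases tested (5.35%). The limit used was Dixon's 95% critical value, which by its construction chance passes in about 1 in 20 groups. Of the vehicle arrays, replicate 1 was high for Daam1 (9.42) and low for Nr4a1 (6.30). Vehicle replicate 3 was high for Cpt1b (12.15) and low for Acsl6 (7.71) and Rxrg (9.73). Vehicle replicate 5 was high for Dbp (9.80), Hlf (6.91) and Tnnt2 (14.11) and low for Ptprr (8.95) and for the brighter probe set of Zfp131 (6.27). Vehicle replicate 6 was low for Mki67 (2.38) and Wt1 (6.80). At 80 mg/kg, replicate 1 was low for Maob (6.61) and high for Midn (9.35), and replicate 2 was low for Ucp3 (3.96) and Pik3ca (8.17). Replicate 4 was low for Esm1 (4.31), replicate 5 low for Aldoc (3.27), and replicate 6 high for Tnnt2 (14.11) and Ptprr (9.48). Ptprr was chosen after its values were seen.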

How the results depend on the processing

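The 10 calls at 6 h became 6 on the deposited scale, which put the median difference at 0.37, 5 with no filter, 5 with array weights, 0 by limma when only arrays of 6 h were fitted (897 before adjustment) and 2 with the 9 arrays alone. They were 16 with the expression cluster as a block, 5 without the arrays with high Myl7, 6 without those with an actin difference over 1.5 and 6 without both kinds. With the replicate block they were 4, of which 3 were among the 10 (Rbp7, Fabp4 and Slc2a3), so Gpihbp1 (adjusted p = 0.118), Hrct1 (0.0952), Sox7 (0.127), Rubcn (0.127), Adamts4 (0.121) and Zfp131 (0.19) were not called there. Same-numbered arrays correlated at 0.22, −0.06 and 0.29, and arrays of unlike number at −0.33 to 0.23. These few values do not settle whether equal numbers mark pairs. The main fit did not take them as pairs. Leaving out single arrays gave 3 to 29 calls. For the 9 called genes 129 of 213 alternatives kept the call, 84 lost it and 0 changed sign. Within the cluster of 3 vehicle and 2 treated arrays and that of 1 and 3, Rbp7 differed by 3.02 and 3.27. In the same order Fabp4 had 1.05 and 1.08, Gpihbp1 1.64 and 1.46, Slc2a3 0.97 and 1.82, and Hrct1 0.59 and 0.67. Adamts4 had 1.85 and 1.88, Sox7 0.9 and 0.6, Rubcn −0.9 and −0.24, and Zfp131 (called probe set) 2.25 and 0.39.

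The effect at 6 h against 24 h gave 1 call on the deposited scale, 1 with median scaling and 2 with array weights, and 0 to 8 with single arrays left out. Against the later mean there were 2 with median scaling, 3 with a pseudocount of 16, 8 with the 60th percentile filter, 7 with an intensity trend, 3 with the replicate block, 5 with the cluster block, 0 without high Myl7 and high actin arrays, and 1 to 9 with single arrays left out. Between the doses there was 1 with the pseudocount, 1 with the 60th percentile filter, 1 with the cluster block, 18 without high Myl7 arrays and 21 without those and the actin arrays, and 0 to 1 with single arrays left out. The cause of these shifts was not tested. In vehicle Adamts4 (3.42) and the called probe set of Zfp131 (4.01) had means below 5.03, the level set for the mean over all arrays.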
